A study of Schizosaccharomyces pombe with 23 samples.

Results

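Fork merging zones are the stretches of the fission yeast (*Schizosaccharomyces pombe*) genome where, in different cells of a culture, rightward and leftward replication forks meet at different positions. They were mapped here in Pu-Seq data, in which a ribonucleotide-prone Pol δ or Pol ε marks the strand it has synthesised. The zones were selected on measured values of the WT RFB OFF libraries. R, an estimate of the share of rightward forks, is the mean of Pol ε usage on the Watson strand and Pol δ usage on the Crick strand, per 300-bp bin and smoothed over 5 bins. Member bins had R from 0.40 to 0.60 and a lower mean R in the 10 bins to their right than in the 10 bins to their left. The region of chromosome II that holds the barrier, between the zone centres at 832.5 and 905.55 kb, was left out. The rule found 8335 of 41909 bins (19.9%, 2500.5 kb), and joining members separated by at most 10 other bins gave 588 zones.

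A fork copies its leading strand mainly with Pol ε and its lagging strand mainly with Pol δ, so the polymerase that made a given strand tells the direction of the fork. R rises where forks leave an origin and falls where forks from neighbouring origins converge. In fission yeast, replication origins fire in only part of the cells in each cycle and lie mostly in AT-rich intergenic DNA, and merging is spread between them rather than tied to one sequence. R near 0.5 can therefore arise at an origin or at a merging site, and only the direction of its change tells them apart.

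The study asked how the nuclear pore and the proteasome affect synthesis that restarts at the *RTS1* replication fork barrier (RFB) on chromosome II, and the merging zones lie outside that barrier region. All strains carried rnh201-RED, ura4-D18, ade6-704, leu1-32 and the *RTS1* sequence marked with phleo on chromosome II. Pol δ strains carried cdc6-L591G and Pol ε strains carried cdc20-M630F. RFB ON strains expressed *rtf1*, which encodes the protein that stops forks at *RTS1*, from the ADH1 promoter, and RFB OFF strains had *rtf1* deleted. The groups were WT, *nup132Δ*, which lacks a nucleoporin of the Y complex, and *rpn10Δ*, which lacks a proteasome subunit that receives ubiquitinated proteins, all grown in YE medium to log phase. Within *nup132Δ* and *rpn10Δ*, some strains were labelled with a hygromycin marker (Hygro) and others with no named marker, and the 2 kinds of *rpn10Δ* strain were kept apart.

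Of 23 libraries, 20 held 5396348 to 38663174 counts, and 3 with 987 to 7167 counts were left out, among them the Pol ε library of *nup132Δ* RFB OFF. The groups were WT RFB OFF (1 library for Pol δ and 2 for Pol ε), WT RFB ON (1 and 1), *nup132Δ* RFB ON (4 and 4), *rpn10Δ* Hygro RFB ON (2 and 2), *rpn10Δ* with no named marker RFB ON (1 and 1) and *nup132Δ* RFB OFF (1 Pol δ library). The counts of 4 libraries over genes on chromosome I went against their labels. Counts over *rpn10* were 50.9% and 49.6% of WT RFB ON in the 2 libraries labelled Pol ε *rpn10Δ* Hygro (KK1894 and KK1895), against 0.14% or less in the other libraries labelled *rpn10Δ*. Counts over *rtf1* were 7.98% and 8.55% of WT RFB ON in the 2 libraries labelled *rpn10Δ* with no named marker RFB ON (KK1581 and KK1582), in the range of the RFB OFF libraries (4.75% to 7.25%) or just above it. The *nup132* gene gave 1.15% to 2.09% of the WT RFB ON counts in every *nup132Δ* library used. All values of R, usage, midpoints and window calls for *rpn10Δ* Hygro use KK1894 and KK1895, and only single-library values of the fall and the strand share are given for its Pol δ libraries alone.

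The sequences at the centres of 6 zones on chromosome I are shown to compare the zones with the steepest fall of R with the zones with the most member bins. The fall was taken between flanks 6 to 12 kb from the centre, so it does not give the slope of R at the printed bases. Positions refer to the RefSeq assembly ASM294v3, whose chromosome I matches the bins in length to within 1 bin. The authors' build is not named, and the match was checked only weakly. Counts followed AT content best at 450 to 600 bp on Watson and -550 to -400 bp on Crick over 10 segments (correlations of -0.252 to -0.116), opposite shifts that average 0 to 50 bp, so positions could not be checked to within 1 bin. Capitals mark annotated coding bases and lower case marks all other bases. The 3 zones with the steepest fall on this chromosome, in *sib1*, which encodes a siderophore synthetase, in *bud6*, which encodes a partner of formins in actin assembly, and in SPAC4G8.09, had these central bins:
sib1, chrI:860401-860700: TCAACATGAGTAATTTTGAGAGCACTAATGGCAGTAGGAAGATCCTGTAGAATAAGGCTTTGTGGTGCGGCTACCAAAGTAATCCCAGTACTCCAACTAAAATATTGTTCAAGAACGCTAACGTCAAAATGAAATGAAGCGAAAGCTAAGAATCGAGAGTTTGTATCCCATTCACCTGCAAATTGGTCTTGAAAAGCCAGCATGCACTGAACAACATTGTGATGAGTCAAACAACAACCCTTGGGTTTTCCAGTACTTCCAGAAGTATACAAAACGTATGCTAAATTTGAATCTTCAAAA
bud6, chrI:3717601-3717900: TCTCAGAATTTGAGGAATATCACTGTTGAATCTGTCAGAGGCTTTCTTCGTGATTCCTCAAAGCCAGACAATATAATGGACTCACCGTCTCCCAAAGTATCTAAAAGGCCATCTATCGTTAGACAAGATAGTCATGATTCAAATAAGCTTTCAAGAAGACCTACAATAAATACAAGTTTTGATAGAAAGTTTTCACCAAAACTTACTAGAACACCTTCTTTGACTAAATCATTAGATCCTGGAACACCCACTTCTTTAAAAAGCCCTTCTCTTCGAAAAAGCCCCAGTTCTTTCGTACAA
SPAC4G8.09, chrI:780601-780900: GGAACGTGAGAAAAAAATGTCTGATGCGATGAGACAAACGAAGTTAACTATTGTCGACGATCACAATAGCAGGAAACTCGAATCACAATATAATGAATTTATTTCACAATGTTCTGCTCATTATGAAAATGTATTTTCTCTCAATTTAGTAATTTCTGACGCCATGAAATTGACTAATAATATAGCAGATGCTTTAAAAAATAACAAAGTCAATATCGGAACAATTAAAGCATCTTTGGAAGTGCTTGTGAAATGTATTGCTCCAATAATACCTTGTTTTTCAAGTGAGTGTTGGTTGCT

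The 3 zones with the most member bins on this chromosome, in *rna4*, which encodes a protein of the spliceosome, in *hhp2*, which encodes a casein kinase, and in the non-coding RNA gene SPNCRNA.4346, had these central bins:
rna4, chrI:516301-516600: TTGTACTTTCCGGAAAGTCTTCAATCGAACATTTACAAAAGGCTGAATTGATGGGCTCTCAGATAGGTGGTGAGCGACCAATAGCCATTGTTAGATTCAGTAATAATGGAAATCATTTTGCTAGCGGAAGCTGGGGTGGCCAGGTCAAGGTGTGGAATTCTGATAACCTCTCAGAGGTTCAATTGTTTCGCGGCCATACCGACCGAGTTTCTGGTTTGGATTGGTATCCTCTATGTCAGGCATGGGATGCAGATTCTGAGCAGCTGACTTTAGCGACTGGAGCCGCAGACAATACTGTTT
hhp2, chrI:1049101-1049400: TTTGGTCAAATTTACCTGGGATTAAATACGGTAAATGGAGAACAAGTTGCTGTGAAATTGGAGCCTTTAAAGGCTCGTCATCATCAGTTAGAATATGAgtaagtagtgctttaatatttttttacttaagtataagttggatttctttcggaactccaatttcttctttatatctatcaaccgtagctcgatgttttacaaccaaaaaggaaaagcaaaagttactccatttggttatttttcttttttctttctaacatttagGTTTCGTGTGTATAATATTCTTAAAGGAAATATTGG
SPNCRNA.4346, chrI:5199901-5200200: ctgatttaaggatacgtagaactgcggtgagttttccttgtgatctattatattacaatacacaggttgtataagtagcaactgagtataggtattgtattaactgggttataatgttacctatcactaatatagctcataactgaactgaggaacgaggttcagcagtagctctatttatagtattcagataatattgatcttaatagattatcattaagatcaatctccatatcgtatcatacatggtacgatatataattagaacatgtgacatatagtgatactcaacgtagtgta

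The 3 steep centres also overlapped annotated non-coding RNA genes (SPNCRNA.2372 at *sib1*, SPNCRNA.3659 and SPNCRNA.3660 at *bud6*, and SPNCRNA.683 at SPAC4G8.09). All 300 bases of the 3 steep centres were coding, and their AT content was 61.3%, 63% and 67.7%. The *rna4* centre was also coding throughout, with 54% AT, the *hhp2* centre held 134 coding bases and 69% AT, and the SPNCRNA.4346 centre held none, lay between divergent genes and had 68% AT. The AT contents of the 2 sets of centres overlapped. Across the 3943 member bins of chromosome I the AT content was 63.5% ± 4.92 (SD over bins), against 66.9% ± 5.93 in the 1568 bins of the same R range where R rose and 63.7% ± 5.21 in the 13086 other bins. Coding bases made up 64.5% of member bins, 37.5% of rising bins and 60.3% of other bins. The bin centre lay in a gap between divergent coding genes for 10.9% of members, 27.5% of rising bins and 13.2% of other bins, and in a gap between convergent genes for 5.60%, 6.63% and 5.52%. Member bins were thus close to other bins in AT content and gene orientation, and the rising bins stood apart as AT-rich and intergenic. Bins are neighbours on 1 genome and not replicates, so these values carry no test.

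Members covered a similar share of each chromosome. They made up 21.2% of bins on chromosome I (261 zones), 19.2% on chromosome II (220 zones) and 18.2% on chromosome III (107 zones), or 46.8, 48.4 and 43.7 zones per Mb. Zones had a median width of 3.6 kb (quartiles 2.1 and 6.0 kb), from 11 zones of a single bin to the 18.6-kb zone at *rna4*, and 38 zones were wider than 10 kb. Neighbouring centres lay 5.1 to 73.05 kb apart, with a median of 18.9 kb (quartiles 11.4 and 28.05 kb), and the longest interval spanned the excluded barrier region. The longest on chromosome I was 65.1 kb, between zone centres at 679.05 and 744.15 kb. Rises of R through 0.5, the positions where forks diverge on balance, numbered 477. Zone centres lay at a median of 0.506 of the way between their flanking rises (quartiles 0.367 and 0.655, 584 zones with a rise on both sides), and 424 lay nearer to the middle of that interval than to either rise.

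**Figure D1:**
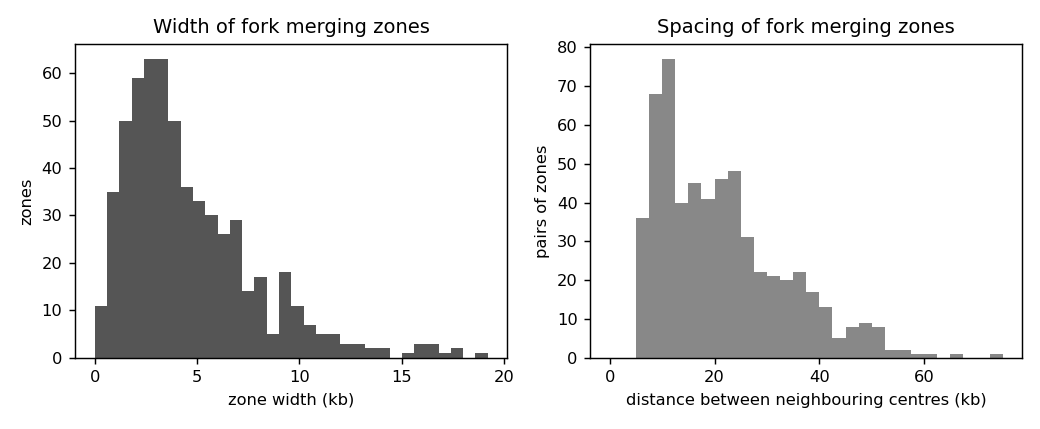
Width of the 588 fork merging zones (left, number of zones by width in kb) and distance between the centres of neighbouring zones on the same chromosome (right, number of pairs by distance in kb). Widths have a median of 3.6 kb and a tail to 18.6 kb, and distances have a median of 18.9 kb and reach 73.05 kb.

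The limits of the rule fell within a continuous range of values. The lowest and highest smoothed R of members were 0.400025 and 0.59999, and the nearest bins outside the limits had 0.3999996 and 0.600028. The smallest difference between the left and right 10 bins among members was 1.70e-05, and the nearest bin of the same R range outside had -8.85e-05. Of the 11615 bins with R in the range and outside the barrier region, 71.8% were members and 3280 were rising.

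In WT RFB OFF, whose values chose the members, R fell over a few kilobases and then turned back. Averaged over all zones, it was 0.583 from 6 to 3 kb left of the centre and 0.417 from 3 to 6 kb right of it. From 12 to 6 kb left it was 0.558, from 6 to 12 kb right 0.446, and 18 to 21 kb away it was 0.498 and 0.493. The mean fall, defined as mean R from 12 to 6 kb left minus mean R from 6 to 12 kb right, was 0.112, with single zones from -0.722 to 0.752 (581 zones with both flanks). At this distance 390 zones had lower R on the right and 191 had higher R there.

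The direction of the wider fall followed the distance to the nearest rise of R, which the definitions favoured in advance. Both come from the same R, and a rise within 6 kb puts a flank of 6 to 12 kb beyond that rise. The relation is therefore no separate finding. The 218 zones with a rise within 6 kb of the centre had a mean fall of -0.115 at 6 to 12 kb, where 74 of 212 fell, and a median fall between the adjacent 10 bins of 0.129. The 171 zones with the nearest rise at 6 to 12 kb had a mean fall of 0.103. The 199 zones with no rise within 12 kb had a mean fall of 0.363, and 194 of 198 fell. Zones up to 2 kb wide had mean falls of -0.0847 and -0.101 (up to 1 kb and 1 to 2 kb), and zones wider than 4 kb had 0.219 (4 to 10 kb) and 0.227 (over 10 kb). The steepest change across the centre itself was in zones 2 to 4 kb wide, with a median of 0.182 between the adjacent 10 bins, against 0.0280 in zones over 10 kb.

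**Figure D2:**
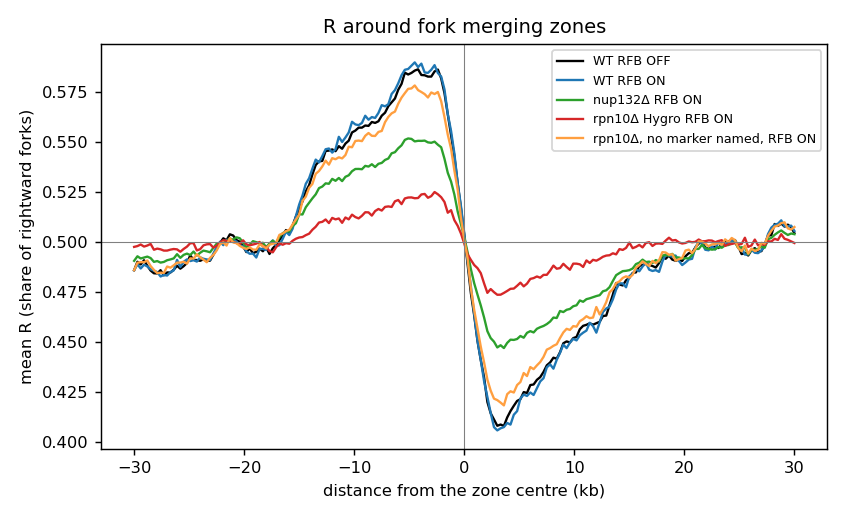
Mean R (y axis, estimated share of rightward forks) by distance from the zone centre in kb (x axis), averaged over all 588 zones, 1 line per condition. All lines are near 0.5 at the centre, and the height of the peak and trough falls in the order WT RFB ON and OFF, *rpn10Δ* with no named marker, *nup132Δ* and *rpn10Δ* Hygro.

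In the conditions that the rule did not use, R fell across most of the zones. In WT RFB ON, where the *RTS1* barrier was active, R between the adjacent 10 bins fell across 564 of 588 zones (95.9%), in *nup132Δ* RFB ON across 573 (97.4%), in *rpn10Δ* with no named marker across 564 and in *rpn10Δ* Hygro across 513 (87.2%). By the same measure R also fell in most bins that were neither members nor rising: 64.1%, 64.3%, 62.8% and 60.8% in the same order. Taken singly, the libraries not used by the rule fell across 69.9% to 91.5% of zones, except KK1894 (239 of 588, 40.6%) and KK1895 (272, 46.3%), labelled Pol ε *rpn10Δ* Hygro. The share of other bins with a fall was not computed for single libraries, so these values have no genome-wide share beside them. The exceptions in *rpn10Δ* Hygro were most frequent among the widest zones, of which 17 of 38 fell, against 204 of 211 zones 2 to 4 kb wide. R smoothed over 5 bins was again between 0.40 and 0.60 in 89.5% of the member bins in WT RFB ON, 93.0% in *rpn10Δ* with no named marker, 99.3% in *nup132Δ* and 99.96% in *rpn10Δ* Hygro. In the other bins of the genome, where R was outside this range in WT RFB OFF by the rule, the shares were 2.85%, 7.25%, 21.5% and 83.8% in the same order. When the rule was applied to each condition by itself, WT RFB ON gave 8034 members, of which 7255 were shared (87.0% of the WT RFB OFF members and 90.3% of its own). *nup132Δ* RFB ON gave 12853 members (97.0% and 62.9%) and *rpn10Δ* Hygro 23828 (87.8% and 30.7%). More of the genome thus had intermediate R in *nup132Δ* and in the libraries labelled *rpn10Δ* Hygro.

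The measured fall of R across the zones was smaller in *nup132Δ* than in WT RFB ON, a difference that did not pass 0.05 after adjustment. It was 0.117 in WT RFB ON (1 library of each polymerase), 0.0727 in *nup132Δ* RFB ON, where the SD was 0.00641 (Pol δ, n = 4) and 0.0158 (Pol ε, n = 4), 0.100 in *rpn10Δ* with no named marker and 0.0273 in *rpn10Δ* Hygro (SD 0.00232 and 0.000729, n = 2 and 2). Pairing single libraries gave 0.0478 to 0.0965 in *nup132Δ* and 0.0251 to 0.0294 in *rpn10Δ* Hygro, all below the single WT RFB ON value. That value has no spread of its own, and the pairs reuse the same libraries and are not independent. The difference between *nup132Δ* and WT RFB ON was -0.0446, with an exact permutation p = 0.04, two-sided, which is the smallest that 25 relabellings within each polymerase can give. The difference between *rpn10Δ* Hygro and WT RFB ON was -0.0900, with an exact permutation p = 0.111, the smallest p that 9 relabellings allow, so this comparison cannot pass 0.05. The difference between *rpn10Δ* Hygro and *nup132Δ* was -0.0455, with an exact permutation p = 0.0267. After Benjamini-Hochberg adjustment over the 9 tests of the zones, the 3 values of p were 0.12, 0.167 and 0.12, and none passed 0.05. Without KK1905 or KK1906 the difference between *nup132Δ* and WT RFB ON was -0.0414 or -0.0392, each with an exact permutation p = 0.1.

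The *nup132Δ* libraries with and without the Hygro marker differed in this measure. The Hygro-marked libraries alone gave a difference from WT RFB ON of -0.0615 and the others -0.0273, each with an exact permutation p = 0.111, the smallest possible with 2 and 2 libraries against 1 and 1. The part of the marker, or of anything else that differed between the 2 sets of strains, was not tested.

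The smaller fall at zones went together with a shallower range of R over all non-member bins, which include zone flanks used for the fall. Both measures thus share data, so a similar ratio of them is not an independent result. The slope of R on WT RFB OFF R over all bins that were neither members nor in the barrier region was 1.03 in WT RFB ON, 0.864 in *rpn10Δ* with no named marker, 0.623 in *nup132Δ* and 0.267 in *rpn10Δ* Hygro. Divided by this slope, the fall was 0.114, 0.116, 0.117 and 0.102, against 0.112 in WT RFB OFF. On this scale *nup132Δ* exceeded WT RFB ON by 0.00276 (exact permutation p = 0.88), a difference that did not pass the test. *rpn10Δ* Hygro minus *nup132Δ* was -0.0145 (exact permutation p = 0.0133), a lower ratio, and *rpn10Δ* Hygro minus WT RFB ON was -0.0117 (exact permutation p = 0.333).

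The same held in single libraries, where the share of counts on the strand of a rightward fork (Crick for Pol δ, Watson for Pol ε) was used in place of R. The fall of this share in Pol δ libraries was 0.102 in WT RFB OFF, 0.106 in WT RFB ON, 0.0906 in *nup132Δ* RFB OFF, 0.0564, 0.0752, 0.0806 and 0.0844 in *nup132Δ* RFB ON, 0.0621 and 0.0681 in *rpn10Δ* Hygro and 0.0894 in *rpn10Δ* with no named marker. The 4 *nup132Δ* RFB ON values were all below both WT values and below the single *nup132Δ* RFB OFF library, and the *rpn10Δ* Hygro values lay within the *nup132Δ* RFB ON range. In Pol ε libraries it was 0.114 and 0.116 in WT RFB OFF, 0.122 in WT RFB ON and 0.103 in *rpn10Δ* with no named marker. It was 0.0343, 0.0461, 0.0773 and 0.101 in *nup132Δ* RFB ON, again all below WT. The libraries labelled Pol ε *rpn10Δ* Hygro gave -0.0172 and -0.0151, and their slopes outside the zones were -0.157 and -0.113, the sign of a Pol δ library. R in *rpn10Δ* Hygro is computed with these 2 libraries, and their part in its low fall was not tested apart from the Pol δ values above. The fall divided by the slope was 0.106 to 0.133 over all 20 libraries.

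**Figure D3:**
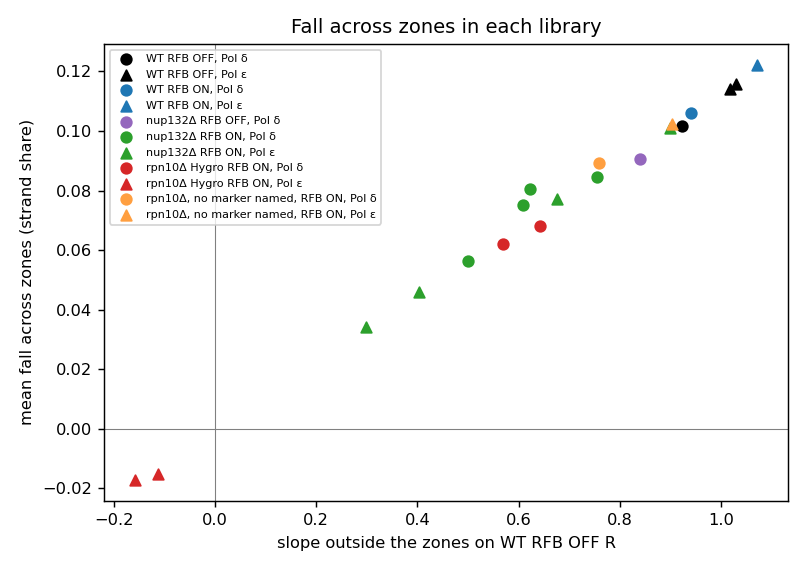
Mean fall of the strand share across the zones (y axis) against the slope of that share on WT RFB OFF R outside the zones (x axis), 1 point per library, circles for Pol δ and triangles for Pol ε. The points lie close to a line through the origin, and the 2 libraries labelled Pol ε *rpn10Δ* Hygro lie below 0 on both axes. Both axes use non-member bins of the zone flanks, so they are not independent.

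Isolated and closely flanked zones were damped to a like degree. In zones with no rise within 12 kb, the mean fall was 0.379 in WT RFB ON, 0.231 in *nup132Δ* and 0.0912 in *rpn10Δ* Hygro. In zones with a rise within 6 kb it was -0.119, -0.0690 and -0.0328. The mean profile of the isolated zones had its highest R 12 kb left of the centre and its lowest 11.7 kb right of it in both WT RFB OFF and *nup132Δ*. The profile of the closely flanked zones had its extremes at 2.4 kb on both sides in WT RFB OFF, and at 2.1 and 2.4 kb in *nup132Δ*. The positions of the extremes thus differed by at most 2 bins between conditions within each class, while their heights differed. The classes were cut at 6 and 12 kb, and every condition was averaged around the same WT RFB OFF centres. This favours like positions in advance.

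**Figure D4:**
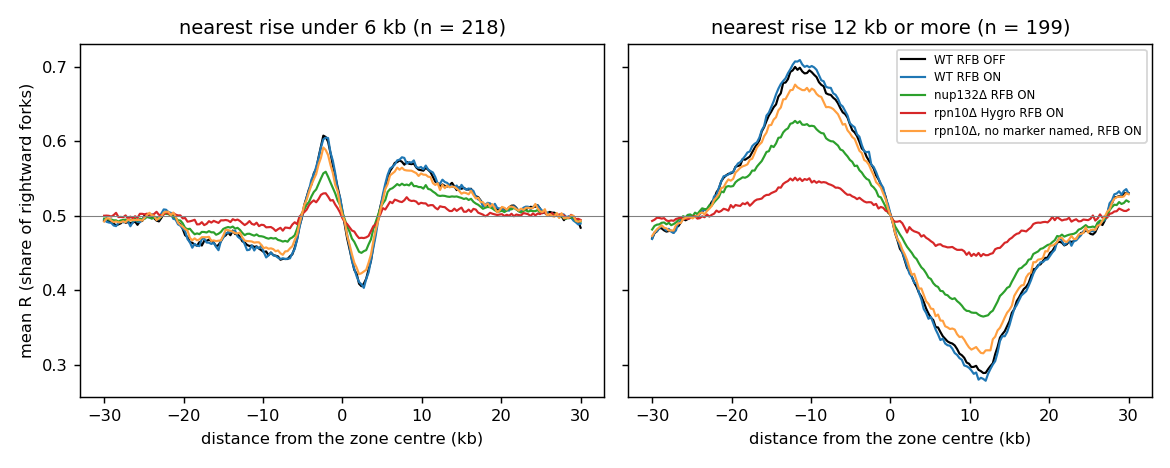
Mean R (y axis) by distance from the zone centre in kb (x axis) for the 218 zones with a rise of R within 6 kb (left) and the 199 zones with none within 12 kb (right), 1 line per condition. The isolated zones fall between extremes about 12 kb away, the closely flanked ones between extremes at 2.1 to 2.7 kb, and the lines differ in height.

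Mean R over the member bins was close to 0.5 in every condition, which the choice of R from 0.40 to 0.60 favoured in advance. Over the conditions it was also 0.499989 to 0.502659 in the rising bins. In the bins that were neither members nor rising it was 0.4976 to 0.4996. The level is therefore no separate finding about the zones. At members it was 0.5024 in WT RFB ON and 0.5016 in WT RFB OFF. In *nup132Δ* it was 0.5015 (SD 0.000106 over Pol δ and 0.000583 over Pol ε libraries). In *rpn10Δ* Hygro it was 0.4998, and in *rpn10Δ* with no named marker 0.5007. *rpn10Δ* Hygro was lower than *nup132Δ*, with a difference of -0.00162 (exact permutation p = 0.00444, the smallest that 225 relabellings can give, adjusted p = 0.04 over the 9 tests), a difference under 1% of R. Without KK1894 the difference was -0.00173 (exact permutation p = 0.0667) and without KK1895 -0.00153 (exact permutation p = 0.0933). With members of R from 0.45 to 0.55 it was -0.000822 (exact permutation p = 0.191). R in *rpn10Δ* Hygro uses KK1894 and KK1895, whose counts over *rpn10* went against their labels. Its range of R was also shallower (slope 0.267, against 0.623 in *nup132Δ*), and the part of this in the difference was not tested. *nup132Δ* and *rpn10Δ* Hygro differed from WT RFB ON by -0.000906 (exact permutation p = 0.16) and -0.00253 (exact permutation p = 0.111).

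Pol δ usage averaged over both strands, which rises where Pol δ makes both strands as after restart at the barrier, was near 0.5 at the zones. Counts were scaled to library totals, which holds usage averaged over many bins near 0.5. In all other bins outside the barrier region it was 0.479 to 0.504 over the conditions. The level at the zones is therefore no measure of synthesis by Pol δ on both strands there. At members it was 0.488 in WT RFB OFF, 0.472 in WT RFB ON, 0.491 in *nup132Δ* (SD 0.0064 over Pol δ and 0.00398 over Pol ε libraries), 0.489 in *rpn10Δ* Hygro and 0.489 in *rpn10Δ* with no named marker. Watson and Crick values differed by less than 0.005 within each condition. *nup132Δ* differed from WT RFB ON by 0.0190 (exact permutation p = 0.08), *rpn10Δ* Hygro from WT RFB ON by 0.0178 (exact permutation p = 0.222) and *rpn10Δ* Hygro from *nup132Δ* by -0.0012 (exact permutation p = 0.827). Usage at members minus that in all other bins was -0.0165 in WT RFB OFF, -0.0212 in WT RFB ON, -0.0123 in *rpn10Δ* with no named marker, 0.00161 in *nup132Δ* and 0.0109 in *rpn10Δ* Hygro. Single pairs of *nup132Δ* libraries ranged from -0.0185 to 0.0136 in this difference, so they fell on both sides of 0. None of these 3 comparisons passed its test.

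Counts per bin were close to the genome mean at the zones. Relative to all other bins outside the barrier region, member bins had 0.916 to 0.974 times the counts in the 10 Pol δ libraries, 1.01 to 1.03 times in the 3 WT Pol ε libraries and 0.946 to 0.993 times in the 7 other Pol ε libraries. Relative to the rising bins of the same R range, members had a median of 1.08 times the counts in Pol δ libraries (0.941 to 1.15, above 1 in 9 of 10) and 1.02 times in Pol ε libraries (0.940 to 1.13, above 1 in 6 of 10). A bin of a member held 126 to 913 counts on average, depending on the library.

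The midpoints of the zones kept their positions in most conditions. The midpoint, where R smoothed over 11 bins fell through 0.5 within 9 kb of the centre, could be placed for 485 zones in WT RFB OFF. Relative to that position, the median shift was -0.00369 kb in WT RFB ON (475 zones), 0.0569 kb in *nup132Δ* (453), -0.0722 kb in *rpn10Δ* Hygro (477) and 0.00315 kb in *rpn10Δ* with no named marker (463), all under 1 bin. The midpoint lay within 1 kb of its WT RFB OFF position for 90.1%, 80.1%, 53.7% and 81.2% of zones. The SD of the shift over zones was 0.955, 1.67, 2.58 and 1.43 kb. Within *nup132Δ*, the median SD of a midpoint was 0.436 kb over the 4 Pol δ libraries and 0.303 kb over the 4 Pol ε libraries, against a median distance of 0.439 kb between *nup132Δ* and WT RFB ON, so the typical distance was close to the spread over Pol δ libraries and above that over Pol ε libraries. Midpoints lay to the left of WT RFB ON in 208 zones and to the right in 242 in *nup132Δ*, and in 251 and 220 in *rpn10Δ* Hygro. Wide zones moved more than narrow ones: the median distance between *nup132Δ* and WT RFB ON was 0.313 kb for zones up to 4 kb and 0.837 kb for zones over 6 kb, and between WT RFB ON and OFF 0.193 and 0.501 kb.

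**Figure D5:**
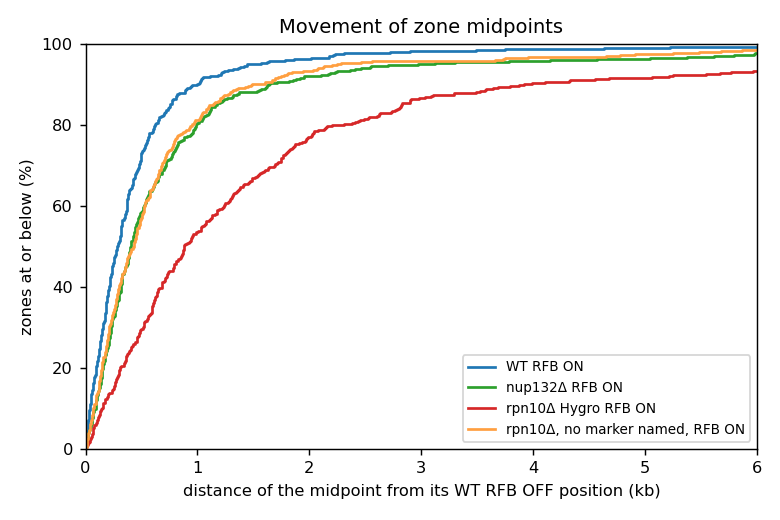
Share of zones (y axis, percent) whose midpoint lay at or below a given distance in kb (x axis, drawn to 6 kb) from its WT RFB OFF position, 1 line per condition. At 1 kb the lines are at 90.1% for WT RFB ON, 80.1% for *nup132Δ*, 81.2% for *rpn10Δ* with no named marker and 53.7% for *rpn10Δ* Hygro.

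The steepest zones of the genome were sharp and kept their place. They lay at 1946701 to 1949400 on chromosome III, 1734601 to 1737300 on chromosome II and 951001 to 953700 on chromosome III, in the coordinates of the files, and each was 2.7 kb wide. The first fell by 0.752 in WT RFB OFF, 0.781 in WT RFB ON, 0.454 in *nup132Δ*, 0.203 in *rpn10Δ* Hygro and 0.669 in *rpn10Δ* with no named marker. Its midpoint was at 1948.1, 1947.6, 1947.7, 1948.8 and 1947.9 kb in the same conditions, which spans about 1 kb. The other 2 fell by 0.736 and 0.726 in WT RFB ON and by 0.431 and 0.442 in *nup132Δ*. On chromosome I the steepest zone, at *sib1* (858901 to 862200), fell by 0.709 in WT RFB ON and 0.413 in *nup132Δ*, with midpoints at 860.14 and 860.11 kb (SD 0.255 kb over Pol δ and 0.263 kb over Pol ε libraries), a difference smaller than the spread between libraries. The zones at *bud6* and SPAC4G8.09 fell by 0.696 and 0.661 in WT RFB ON and by 0.419 and 0.399 in *nup132Δ*.

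The zones with the most member bins had shallow slopes. The zone at *rna4* (507301 to 525900 on chromosome I, 62 member bins) fell by 0.203 in WT RFB ON, 0.106 in *nup132Δ* and 0.0553 in *rpn10Δ* Hygro. Its midpoint was at 515.1 kb in WT RFB ON and 519.4 kb in *nup132Δ*, 4.25 kb apart, with an SD of 2.54 kb over the Pol δ and 0.844 kb over the Pol ε libraries of *nup132Δ*. The next 2 by number of member bins, at 1355101 to 1370700 and 4311301 to 4327500 on chromosome II (48 member bins each), had midpoints that differed between *nup132Δ* and WT RFB ON by -0.314 and -0.690 kb. In the zone at *hhp2* (1041301 to 1057500) the midpoint was at 1053.2 kb in WT RFB ON and 1053.0 kb in *nup132Δ*.

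At the zone whose midpoint differed most between strains, the nearest crossings of 0.5 lay on opposite sides of the zone. The largest difference between *nup132Δ* and WT RFB ON was -16.6 kb, at a zone of 2 member bins at 5471101 to 5471700 on chromosome I, over the genes *mmf2* and *gto1*. The nearest crossing lay at 5479.9 kb in WT RFB ON, 5480.1 kb in WT RFB OFF and 5479.6 kb in *rpn10Δ* Hygro, to the right of the zone, and at 5463.3 kb in *nup132Δ* (SD 0.178 and 0.252 kb), to its left. The next 2, at 1085701 to 1087800 on chromosome III and 1613101 to 1615500 on chromosome II, differed by -8.34 and -8.30 kb. The first had SDs of 5.10 and 4.45 kb over *nup132Δ* libraries, which is a large share of the difference, and in the second at least 1 Pol δ library had no crossing. Between *rpn10Δ* Hygro and WT RFB ON the largest differences were -14.0 kb at 1995601 to 1997100 on chromosome III, 10.2 kb at the zone of 6 member bins that ends at 4800 on chromosome II and 9.40 kb at 3193501 to 3198900 on chromosome II. At the first and the last of these, *nup132Δ* differed from WT RFB ON by 0.247 and 0.213 kb.

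In the zones nearest the barrier, mean R changed little with its activity in WT, while the midpoint moved in the next zone to the right. The zone just left of the excluded region (830101 to 834900 on chromosome II) had a mean R of 0.508 in WT RFB OFF, 0.492 in WT RFB ON and 0.515 in *nup132Δ*, and a Pol δ usage of both strands of 0.564, 0.543 and 0.533. The zone just right of it (905101 to 906000, 3 member bins) had a mean R of 0.415, 0.440 and 0.447 and a Pol δ usage of 0.467, 0.435 and 0.483. In *rpn10Δ* Hygro and *rpn10Δ* with no named marker, mean R was 0.482 and 0.471 on the left, and 0.499 and 0.462 on the right. In the next zone to the right (920101 to 933900), mean R was 0.474 in WT RFB OFF and 0.472 in WT RFB ON. Its midpoint was at 922.9 and 926.4 kb, 3.49 kb apart, where 8 of 475 zones differed by over 3 kb. WT RFB ON has 1 library of each polymerase, so the size of these differences against replicate error is unknown.

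Window counts tested across the whole genome changed less often in the zones than elsewhere. Counts in 3-kb windows per strand were compared by edgeR (quasi-likelihood), asking whether the Pol δ to Pol ε ratio differed between strains, over 8380 windows of which 1744 held at least 5 member bins. Between *nup132Δ* and WT RFB ON, 39.3% of all windows were called at an adjusted p under 0.05, and 122 of 1744 member windows (7.0%), 62 with a higher and 60 with a lower Pol δ to Pol ε ratio. Where all 10 bins of a window had to be members, 32 of 676 were called (4.73%), 27 higher and 5 lower. Between *rpn10Δ* Hygro and WT RFB ON, 69.7% of all windows and 477 member windows (27.4%) were called, and between *rpn10Δ* Hygro and *nup132Δ*, 43.2% and 252 (14.4%). The rising windows of the same R range gave 56 of 532 (10.5%), 142 (26.7%) and 86 (16.2%), so a low share was shared by windows of intermediate R whether R fell or rose across them. Members were chosen for intermediate R, and R was more often intermediate along the genome in *nup132Δ* and *rpn10Δ* Hygro. The rule thus favoured a low share in advance, and the low share is no separate finding about the zones. The median absolute log2 difference of the ratio was 0.193 in member windows and 0.493 in all windows for *nup132Δ* against WT RFB ON, 0.294 and 0.887 for *rpn10Δ* Hygro against WT RFB ON and 0.185 and 0.429 for *rpn10Δ* Hygro against *nup132Δ*. The first 2 comparisons share the WT RFB ON libraries. The count for *nup132Δ* against WT RFB ON was 77 without KK1905, 80 without KK1901 and 248 without KK1524, while the share of all windows called was 30.1%, 29.4% and 57.3%. It was 501 with only the Hygro-marked *nup132Δ* libraries and 40 with only the others, when 71.3% and 23.6% of all windows were called, so the count in the zones moved with that over the genome. For *rpn10Δ* Hygro against *nup132Δ* it was 0 without any 1 of the 4 *rpn10Δ* Hygro libraries, when edgeR called 1 to 5 of all windows but 233 to 309 member windows had an unadjusted p under 0.05, and 161, 163 and 159 without KK1902, KK1518 and KK1523, when 30.0%, 28.5% and 25.9% of all windows were called.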

How the data were processed

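Pu-Seq was performed on pairs of strains with a mutated Pol δ or Pol ε. The authors aligned reads with Bowtie2 and deposited raw read counts per 300-bp bin and strand (1 file per strand), not normalised. The genome build is not given in the sources used here, and bin positions are those of the files. Counts were divided by the library total, group means were taken, and Pol δ usage was δ/(δ + ε) per bin and strand. Libraries with a mean under 10 counts per bin were left out. Libraries of a group differed by more than counting error, with a chi-square per degree of freedom of 1.45 to 14.7 over 15 pairs, so none was counted as a duplicate. At the low end (KK1894 and KK1895, KK1905 and KK1906) counting error makes up much of the spread per bin.

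The members and lists were chosen with earlier results of these data known. Measures over zones were compared by two-sided exact permutation, exchanging strains among libraries of the same polymerase. Windows averaging 10 counts or more entered edgeR 4.0.16 (TMM, quasi-likelihood, Benjamini-Hochberg) in R 4.3.3 over all RFB ON libraries, with DESeq2 1.42.0 as an alternative. Named zones were the 3 with most member bins, the 3 with the steepest fall in WT RFB OFF and the 3 with the largest midpoint difference between WT RFB ON and each mutant, and genes were named on chromosome I only. The further chromosome I zones whose sequences are printed were the 3 steepest there and the 3 with most member bins there. Values over zones were computed in Python 3.11.15 with numpy 2.4.6 and pandas 2.3.3. The fall, its ratio to the slope, the midpoint shift and the edgeR window test were tried on simulated counts. The other steps were not simulated. Nothing says that libraries of a group came from separate cultures, so p-values measure only the spread between these libraries.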

Additional observations from a re-analysis of the deposited data

Results flagged for a closer look

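Of 16 groups of 4 libraries and measures examined in *nup132Δ* RFB ON, 2 held a library far from the other 3, where chance alone flags about 1 in 20. In the Pol δ library KK1518, member bins held 0.946 times the counts of the other bins, against 0.970 to 0.974 in the other 3. The Pol δ library KK1517 had a total of 5396348 counts, against 12065673 to 13270315 in the other 3.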

How the results depend on the processing

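Of 200 alternative values for 14 results, 151 kept their direction and side of the threshold (unadjusted p of 0.05, or a count within 1.5 times). Comparisons of *rpn10Δ* Hygro with WT RFB ON in fall, Pol δ usage and mean R had too few libraries to pass this threshold. Their 13, 9 and 8 alternatives had an exact permutation p of at least 0.0625 and could not change side. The rule with R from 0.45 to 0.55 gave 4290 members. The fall of *nup132Δ* minus WT RFB ON was -0.0333 with the shallow libraries kept, -0.0615 for Hygro-marked and -0.0273 for other *nup132Δ* libraries, -0.0125 with flanks of 12 to 18 kb, 0.00276 divided by the genome-wide slope, and -0.0508 to -0.0392 without 1 library (p = 0.1 by exact permutation without KK1905 or KK1906). For *rpn10Δ* Hygro minus *nup132Δ* it was -0.0285 and -0.0627 for those 2 sets, -0.0212 with all libraries labelled *rpn10Δ*, -0.0521 with flanks of 3 to 9 kb and, chosen after seeing the data, -0.0333 between adjacent 10 bins. Without 1 library it was -0.0509 to -0.0392, and it lost the threshold without KK1868, KK1894, KK1895 or KK1905. Pol δ usage of *nup132Δ* minus WT RFB ON was 0.0169 scaled outside barrier and chromosome ends, 0.155 with the shallow libraries kept and 0.0166 to 0.0218 without 1 library. It passed the threshold in the first 2 of these settings (exact permutation p = 0.04 and 0.0267) and without KK1518. For *rpn10Δ* Hygro minus *nup132Δ* it was 4.94e-06 with R from 0.45 to 0.55, 0.00926 relative to other bins (chosen after seeing the data) and -0.00577 to 0.00116 without 1 library. Mean R of *nup132Δ* minus WT RFB ON was 9.37e-05 with R from 0.45 to 0.55. For *rpn10Δ* Hygro minus *nup132Δ* it was -0.000822 with that range, -0.00129 and -0.00199 for the Hygro-marked and other *nup132Δ* libraries, and -0.00178 to -0.00135 without 1 library.

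Member windows called in the 3 comparisons numbered 32, 124 and 57 of 676 where all 10 bins had to be members. Of these, 27, 81 and 27 were higher. The shares called were 4.73%, 18.3% and 8.43%, against 39.3%, 69.7% and 43.2% of all windows. DESeq2 called 237 of 1744 for *nup132Δ* against WT RFB ON (13.6%), when it called 49.2% of all windows. For *rpn10Δ* Hygro against *nup132Δ* it called 436 (25%, all windows 53.8%), of which 299 were higher (108 of 252 in edgeR). For *rpn10Δ* Hygro against WT RFB ON it called 625 (35.8%, all windows 74.1%), of which 400 were higher (246 of 477 in edgeR). Without 1 library the member windows called by edgeR ranged from 77 to 248, 333 to 542 and 0 to 308 of 1744. The share of all windows called then ranged from 29.4% to 57.3%, 63.3% to 72.8% and 0.0119% to 57.3%. Chosen after seeing the data, *nup132Δ* against WT RFB ON gave 37 without the *rpn10Δ* Hygro libraries, 501 with Hygro-marked and 40 with other *nup132Δ* libraries, while 21.1%, 71.3% and 23.6% of all windows were called. The share called was lower among member windows than among all windows in 54 window settings, of which 4 called no member window and at most 5 windows in all and so say nothing. The choice of members by intermediate R favours a low share in every setting. The causes were not tested. WT RFB ON has 1 library of each polymerase, so none could be left out. No paired analysis was possible because replicates are named by strain numbers that groups do not share.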
